A study of Mus musculus with 3 samples.

Results

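MiR-103, miR-107, miR-15a, miR-15b and miR-16 form a group of miRNAs whose 5′-ends are nearly the same, offset by 1 base. In mouse they are made from 7 hairpins, namely Mir103-1, Mir103-2, Mir107, Mir15a, Mir16-1, Mir15b and Mir16-2. All 7 were found in the small RNA alignments of MIN6 cells, a beta cell line that was established from a mouse insulin-producing tumor of the pancreas. The hairpins were chosen by name, and the 5′-starts of their main arms were placed by the chromosome, the strand and the read number of the listed miRNA. The main arm of each is 1 of the 144 placed 5′-starts that the study lists as highly expressed in at least 1 of its MIN6 or human samples. The data are 3 libraries of 1 condition, MIN6 cells cultured with 25 mM glucose, with 9269795, 10816006 and 10218743 mapped reads in libraries 1, 2 and 3. No other cell type, genotype or treatment was compared. The study's methods call the 3 libraries biological replicates, and the SD given with each value measures the spread between them.

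A miRNA is cut from its hairpin in successive steps. Drosha releases the hairpin from the primary transcript, Dicer removes the terminal loop, and 1 strand of the remaining duplex, the 5p or the 3p arm, is usually kept by Argonaute. The bases at positions 2 to 8 from the 5′-end, the seed, largely set which mRNAs are bound, so that a start moved by 1 base gives a different seed. The miR-15/16 family is known for its control of cell cycle genes and of the survival factor BCL2, and MIR15A and MIR16-1 are lost in many chronic lymphocytic leukemias. MiR-103 and miR-107 lie in the genes of pantothenate kinases, the enzymes that begin coenzyme A synthesis, and have been linked to insulin sensitivity.

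The main arms are shown to make the shared bases visible. These are RefSeq mature sequences, written 5′ to 3′ with the seed in capitals, and the positions are mm9 coordinates computed from the alignments.
miR-103-3p (Mir103-1, chr11:35595949-35595971, + strand; Mir103-2, chr2:131113839-131113861, + strand): aGCAGCAUuguacagggcuauga
miR-107-3p (Mir107, chr19:34895190-34895212, − strand): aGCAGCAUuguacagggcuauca
miR-16-5p (Mir16-1, chr14:62250773-62250794, − strand; Mir16-2, chr3:68813840-68813861, + strand): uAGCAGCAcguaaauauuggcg
miR-15a-5p (Mir15a, chr14:62250912-62250933, − strand): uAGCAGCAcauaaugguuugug
miR-15b-5p (Mir15b, chr3:68813697-68813718, + strand): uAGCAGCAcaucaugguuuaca
MiR-103-3p and miR-107-3p come from the 3p arm and have the seed GCAGCAU, and the other 3 come from the 5p arm and have the seed AGCAGCA. MiR-103-3p and miR-107-3p differ only by G22C, with positions counted from 1 at the 5′-end of miR-103-3p. MiR-15a-5p and miR-15b-5p differ by A12C, G20A, U21C and G22A, counted from 1 at the 5′-end of miR-15a-5p. In the GENCODE M21 annotation, Mir103-1, Mir103-2 and Mir107 lie in introns of Pank3, Pank2 and Pank1. Mir15b and Mir16-2 lie together in an intron of Smc4, which codes for a condensin subunit. Mir15a and Mir16-1 lie together in the noncoding gene Dleu2, where the Mir16-1 hairpin also overlaps an exon of a Dleu2 transcript.

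MiR-16-5p was by far the most abundant of these miRNAs. Because its sequence is the same in Mir16-1 and Mir16-2, the authors divided each such read equally between the 2 loci, and the level of miR-16-5p is the sum over them. This sum was 47954, 53143 and 49263 reads in libraries 1, 2 and 3, or 4969 ± 183 RPM (reads per 1000000 mapped reads; mean ± SD, n = 3). The libraries differed little from each other. For miR-103-3p the sum over Mir103-1 and Mir103-2 was 7658, 7861 and 7911 reads, or 776 ± 49.7 RPM. MiR-107-3p had 979, 931 and 1002 reads, or 96.6 ± 9.86 RPM. MiR-16-5p was thus 6.42 ± 0.298 times as abundant as miR-103-3p, which in turn was 8.05 ± 0.342 times as abundant as miR-107-3p, and the library values of these 3 did not overlap.

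MiR-15b-5p had 1406, 1645.5 and 1265.5 reads, or 143 ± 16.2 RPM. MiR-15a-5p had 826, 843.5 and 911.5 reads, or 85.4 ± 6.45 RPM. All 3 values of miR-15b-5p were above those of miR-15a-5p, with a ratio of 1.68 ± 0.282 within libraries. The levels of miR-107-3p and miR-15a-5p were close, and their RPM ranges overlapped across libraries (86.0 to 106 and 78.0 to 89.2). Of all reads at the 5′-reference starts of the 4 miR-15/16 hairpins, miR-16-5p held 95.6 ± 0.133%, miR-15b-5p 2.74 ± 0.255% and miR-15a-5p 1.64 ± 0.128%. Of the reads at the starts of miR-103-3p and miR-107-3p, miR-107-3p held 11.1 ± 0.409%.

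**Figure D1:**
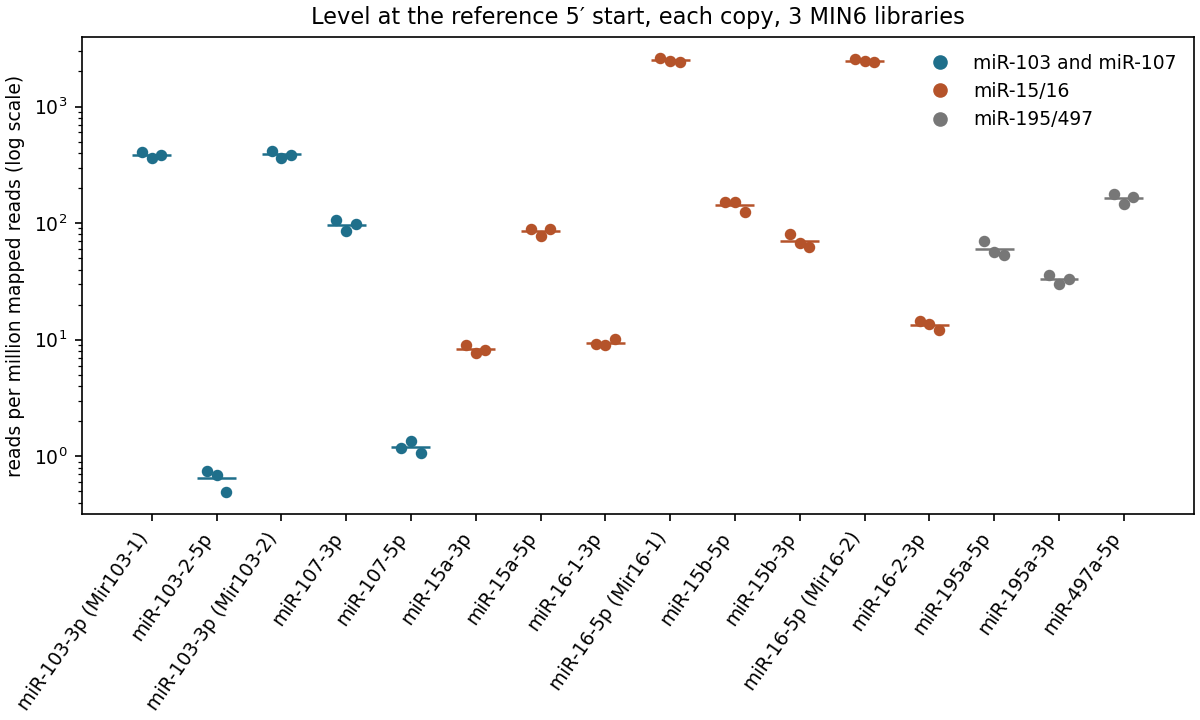
RPM (vertical axis, log scale) at the 5′-reference start of each arm, with 1 point for each of the 3 MIN6 libraries and a line at their mean, for arms with a mean of at least 5 reads. The 2 copies of miR-16-5p sit at means of 2486 and 2483 RPM and the 2 copies of miR-103-3p at 387 and 389 RPM because shared reads were divided between them.

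The reads barely tell the copies apart. At Mir16-1, 99.9 ± 0.00735% of the miR-16-5p reads had the same length, mismatches and value as at Mir16-2. Copy-specific reads of miR-16-5p that matched without a mismatch began at 24 nt, where the hairpins differ. They numbered 18, 23 and 21 at Mir16-1 and 1, 1 and 2 at Mir16-2. These few long reads were higher at Mir16-1 in every library, and they do not measure how much each locus adds to the 22-nt form. After miR-16-5p the hairpin continues with UU at Mir16-1 and with UA at Mir16-2. A read of either copy with added U could therefore match Mir16-1 without a mismatch, and this was not tested. For miR-103-3p, mismatch-free copy-specific reads numbered 0, 0 and 1 at Mir103-1 and 9, 13 and 12 at Mir103-2. Between miR-103-3p and miR-107-3p, reads of up to 21 nt and some longer reads that end in added bases were divided into 3. These made up 15.6 ± 0.832% of the miR-107-3p value and 3.89 ± 0.104% of that of Mir103-1. The equal division does not follow the abundance of the miRNAs, so the ratio of miR-103-3p to miR-107-3p depends on it.

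The arms that differ between the Mir15a/Mir16-1 and Mir15b/Mir16-2 clusters can be set side by side. Summed over the reference starts of miR-15-5p, miR-15-3p and miR-16-3p, the Mir15b/Mir16-2 cluster was higher in every library, by 1.13 ± 0.218 on the log2 scale. The difference was not even across the arms. The ratio was 1.68 ± 0.282 for miR-15b-5p over miR-15a-5p, 1.43 ± 0.205 for miR-16-2-3p over miR-16-1-3p, and 8.5 ± 0.725 for miR-15b-3p over miR-15a-3p. In reads, miR-15b-3p had 753, 730 and 638 and miR-15a-3p had 83, 83.5 and 83, while miR-16-2-3p had 135 ± 12.5 and miR-16-1-3p had 95.3 ± 8.62. At these reference starts, the library values of the arms did not overlap in either of these last comparisons. With the shifted starts of the 3p arm included, Mir16-1 had 156, 181 and 164 reads and Mir16-2 had 188, 196 and 174. These ranges overlapped, so the difference in miR-16-3p holds for the reference starts only.

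MiR-15b-3p therefore stood out among the minor arms. The 5p arm exceeded the 3p arm 2.03 ± 0.199 times at Mir15b and 10.3 ± 0.557 times at Mir15a. At Mir16-1 and Mir16-2 it exceeded the 3p arm 264 ± 21.6 and 186 ± 12.6 times, where the 5p value is the equal share of the common reads. These ratios count the reference start of each arm only, and shifted 3p starts were frequent at Mir16-1. The 5p arms of the Mir103-1, Mir103-2 and Mir107 hairpins were near the detection limit. MiR-107-5p had 11, 14.5 and 11 reads, miR-103-2-5p had 7, 7.5 and 5, and miR-103-1-5p had 0, 0 and 2, where a count of 0 allows up to 3 reads.

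Other hairpins were listed as relatives of miR-15/16 for this comparison. Of these 5, Mir497 and Mir195a could be placed, and both carry the seed AGCAGCA. Mir322, Mir503 and Mir1907 were not analysed here. MiR-497a-5p had 1647, 1569 and 1714 reads, or 163 ± 16.7 RPM. MiR-195a-5p, which differs from miR-16-5p within its length by G10A and U11G, had 655, 609.5 and 549 reads, or 60.3 ± 9.11 RPM. Together these 2 had 224 ± 23.5 RPM, close to the sum of miR-15a-5p and miR-15b-5p and far below miR-16-5p. At Mir195a the 5p arm exceeded the 3p arm 1.82 ± 0.171 times, so that Mir195a and Mir15b were alike in their balance of arms.

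Because the seeds of the 2 subgroups are offset by 1 base, a miR-103 or miR-107 read that begins 1 base upstream would carry the miR-15/16 seed. The next sequences, from the RefSeq hairpins, show the possible starts of miR-103-3p with the resulting seeds in capitals.
1 base upstream: aAGCAGCAuuguacagggcuauga
5′-reference: aGCAGCAUuguacagggcuauga
1 base downstream: gCAGCAUUguacagggcuauga
2 bases downstream: cAGCAUUGuacagggcuauga
Such upstream reads were nearly absent. The 3 hairpins together had 3, 1 and 5 of them, or 0.0340 ± 0.0223% of the reads at the 5′-reference start and 1 base on either side. Of these 9 reads, 8 had a mismatch, and with alignments without a mismatch the share was 0.00611%. The Wilson 95% intervals of their share of reads within 5 bases, which cover counting error only, ranged from 0.00194% to 0.126% over the libraries. Mir107 had 0 such reads in each library, which allows up to 3. Within the 7 hairpins, the miR-15/16 seed was present at 5197 ± 196 RPM and that of miR-103 and miR-107 at 872 ± 59.4 RPM. The 1-base shift moved neither value by more than the spread between libraries. The 224 ± 23.5 RPM of miR-195a-5p and miR-497a-5p, with the miR-15/16 seed, are not included.

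The starts 1 base downstream were rare as well. MiR-15/16 had 57, 45 and 61 reads there, or 0.104 ± 0.0204%. Such reads would have the seed GCAGCAC, which differs from that of miR-103 and miR-107 in its last base. The miR-103 and miR-107 hairpins had 14, 6 and 8 reads 1 base downstream. At the minor starts of miR-16-5p the copies could be compared where the base before the miRNA differs. Reads 1 base upstream numbered 3, 0.5 and 3 at Mir16-1 and 25, 15.5 and 13 at Mir16-2.

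Among the main arms, the largest share of reads at a start within 3 bases of the reference was 2 bases downstream in miR-103-3p. It had 285, 291 and 345 reads over the 2 copies, or 3.77 ± 0.347% of the reads within 5 bases of the 5′-reference start. Most were 21 nt long and ended at the same base as the reference form of 23 nt. MiR-107-3p, with the same first 21 bases, had 2.92, 4 and 1 reads at this start, or 0.275 ± 0.165%. The library values did not overlap, and a two-sided exact permutation test of 3 against 3 values gave p = 0.1, the smallest p this design allows. Paired by library, the difference was 3.13 to 4.07 percentage points in the 3 libraries, with p = 0.25 by an exact sign-flip test, again the smallest possible. This comparison was chosen after seeing the data. None of the 7 main arms had 5% or more of its reads at starts 1 or 2 bases from the reference in every library, compared with 21.5% of the 144 listed starts.

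**Figure D2:**
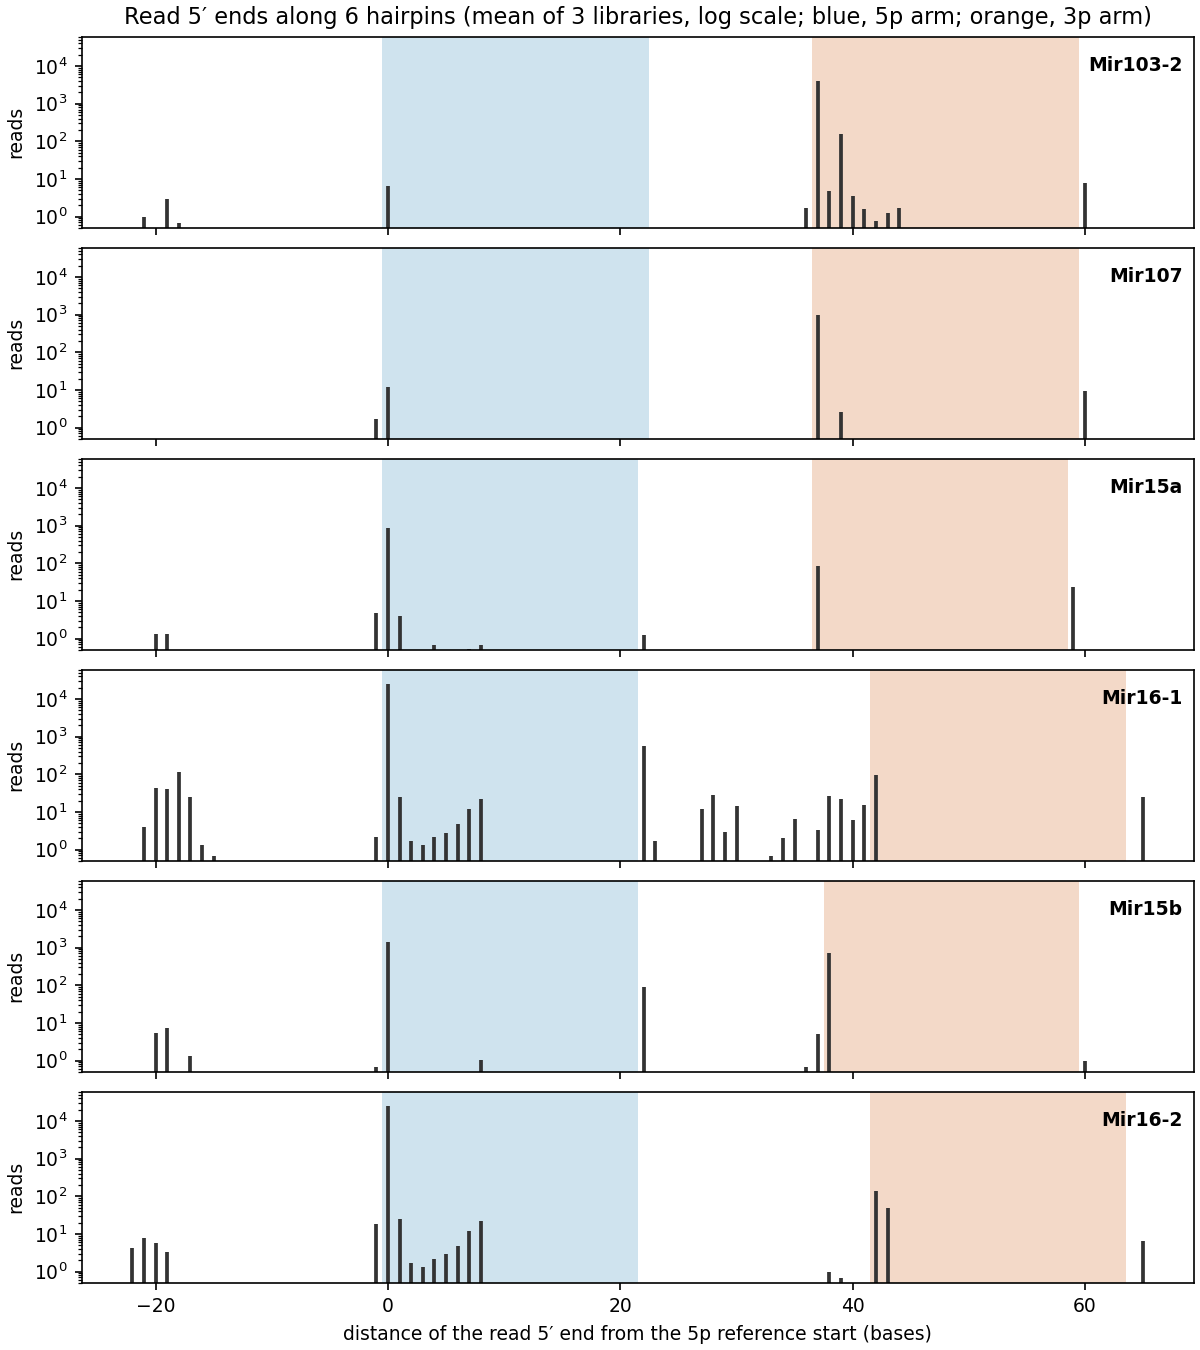
Mean number of reads over 3 libraries (vertical axis, log scale) that begin at each distance from the 5p reference start (horizontal axis, bases) in 6 of the hairpins, with the 5p arm shaded in blue and the 3p arm in orange. The arm starts dominate, Mir16-1 and Mir15b have a further start 22 bases downstream at the first base after the 5p arm, and Mir16-2 has none there.

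Mir16-1 differed from Mir16-2 in what lay between and beside its arms. At Mir16-1, 551, 601 and 515 reads began at the base after miR-16-5p, and 98.8 ± 0.725% of them were 20 nt long and ended at the base before miR-16-1-3p. They span the whole loop. At 55.1 ± 4.54 RPM, the loop was 5.87 ± 0.759 times as abundant as miR-16-1-3p at its reference start. At Mir16-2, whose loop has the same length, no read began there in any library, which allows up to 3 reads or 0.277 to 0.324 RPM. Mir15b gave 73.2, 104 and 99.7 loop reads, of which 99.8 ± 0.228% were 16 nt long and ended at the base before miR-15b-3p. Mir497 gave 57, 53 and 57 loop reads, of which 97.1 ± 3.65% were 18 nt long and likewise filled the space between its arms. At Mir15a, with a loop of 15 nt, there were 1.67, 1.67 and 0.333 such reads, and at Mir195a, with 16 nt, 1, 2.8 and 1.4. Fractional values mean that such short reads were divided among several loci. They are therefore not directly comparable with the 20-nt loop reads of Mir16-1. The loops are shown from the RefSeq hairpins to compare these hairpins, with the loop in capitals between 5 bases of each arm.
Mir16-1 loop (mm9 chr14:62250753-62250772, − strand): uggcgUUAAGAUUCUGAAAUUACCUccagu
Mir16-2 loop (mm9 chr3:68813862-68813881, + strand): uggcgUAGUGAAAUAAAUAUUAAACaccaa
Mir15b loop (mm9 chr3:68813719-68813734, + strand): uuacaUACUACAGUCAAGAUGcgaau
Mir497 loop (mm9 chr11:70048254-70048271, + strand): uuguaCGGCACUGUGGCCACGUCcaaac

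Reads bordering the arms on their outer side were also found, as in miRNA-offset RNAs, small RNAs cut from the hairpin next to a mature miRNA. At Mir16-1, 203, 224.5 and 242 reads began 17 to 21 bases before miR-16-5p, and 98.0 ± 0.435% of them ended at the base just before it. The most frequent was the 18-nt form, with 113 ± 8.39 reads. At the same distances there were 23, 14 and 14 reads at Mir16-2 and 12, 14 and 16 at Mir15b. Mir195a had 24, 23 and 26 reads that began 19 bases before miR-195a-5p, of which 98.6 ± 2.51% ended just before it. On the other side, 30, 19 and 19.3 reads began at the base after miR-15a-3p, 22 bases from its start. At Mir16-1, 20, 29.5 and 23.5 reads began 23 bases after the start of miR-16-1-3p, the base that follows its most frequent 23-nt form.

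In the 7 hairpins, the remaining starts with at least 10 reads in every library lay in Mir16-1 and Mir16-2. Inside the 5p arm, 20, 21 and 23.7 reads per copy began 8 bases after the start of miR-16-5p, and all were 14 nt long, which takes them to its last base. The alignments hold no read shorter than 14 nt, so a read that ends there could not begin further downstream. Within the Mir16-1 loop, 26, 26 and 30 reads began 28 bases and 10, 18 and 16 reads began 30 bases after the 5p start. Their main forms of 37 and 35 nt reached the end of the 23-nt form of miR-16-1-3p. The 3p arm of Mir16-1 also had starts 4, 3 and 1 bases before its reference, with 22, 36 and 23, then 22, 24 and 21, then 18, 17 and 12 reads. MiR-16-2-3p had a second start 1 base downstream with 52, 46 and 47 reads, compared with 135, 148 and 123 at its reference start. In the related Mir497 hairpin, 29, 28 and 28 reads began 1 base downstream of miR-497a-5p, or 1.70 ± 0.0786% of its reads.

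The lengths of the main arms differed between close relatives. MiR-16-5p was 22 nt long in 96.1 ± 0.104% of its reads and miR-15b-5p in 93.6 ± 0.616%. In contrast, miR-15a-5p had 58.3 ± 1.29% of its reads at 22 nt and 31.9 ± 1.31% at 21 nt. MiR-103-3p was mainly 23 nt long, with 76.6 ± 0.771% of its reads, and 10.4 ± 0.909% at 22 nt. For miR-107-3p the order was the reverse, with 57.7 ± 1.57% at 22 nt and 26.0 ± 0.786% at 23 nt. These differences exceeded the spread between libraries many-fold. The mean length was 22.9 ± 0.0118 nt for miR-103-3p and 22.1 ± 0.0291 nt for miR-107-3p. The latter includes 21-nt reads, 10.6 ± 0.726% of miR-107-3p, which are equal shares of reads that also match miR-103-3p. A miR-103-3p read cut at base 21 with an added C has the same letters as the 22-nt form of miR-107-3p and aligns to Mir107 without a mismatch, so that such reads would be counted as miR-107-3p and their number is unknown.

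**Figure D3:**
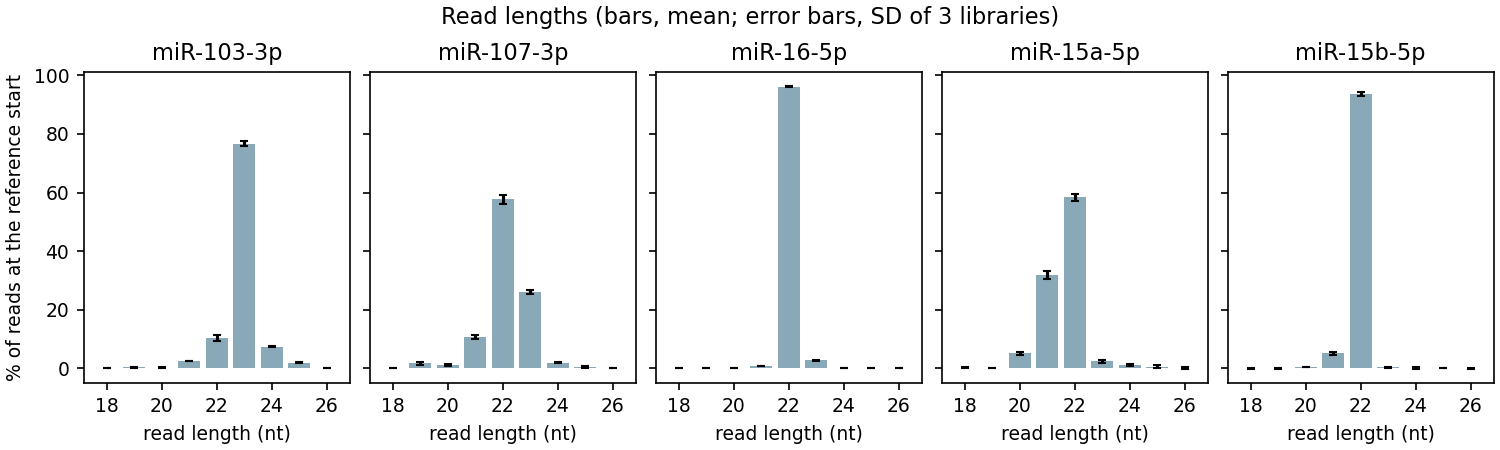
Share of the reads at the 5′-reference start (%, vertical axis) by read length (nt, horizontal axis) for the 5 main mature miRNAs, as the mean of 3 libraries with the SD as error bars. MiR-16-5p and miR-15b-5p peak sharply at 22 nt, miR-15a-5p spreads to 21 nt, and miR-103-3p peaks at 23 nt while miR-107-3p peaks at 22 nt.

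The 3′-ends of miR-103 and miR-107 often carried bases that do not match the genome. The study treats a mismatch at the 3′-end as a non-templated addition. A mismatch at the last base was found in 16.2 ± 0.438% of the miR-103 and miR-107 reads and in 0.381 ± 0.0374% of the miR-15/16 reads. The difference was 15.8 percentage points, and a two-sided exact permutation test of 3 against 3 library values gave p = 0.1, the smallest p possible here. Within libraries it was 15.4 to 16.3 percentage points, and an exact paired sign-flip test over the 3 libraries gave p = 0.25, the smallest it can give. With a mismatch at any of the last 3 bases counted, the shares were 17.9% and 0.877%. The miR-15/16 share at the last base was mostly that of miR-16-5p, which had 0.291 ± 0.0341% at Mir16-1. MiR-15a-5p had 2.99 ± 0.409% and miR-15b-5p 2.03 ± 0.206%. A mismatching tail made of U only was found in 14.8 ± 0.522% of the reads at Mir103-2 and in 16.8 ± 0.611% of those at Mir107. Of the 7 main arms, those of Mir103-1, Mir103-2 and Mir107 had U tails in 10% or more of their reads in every library, compared with 25.7% of the 144 listed starts. Mir103-1 and Mir103-2 share nearly all of these reads, so that the 3 arms hold 2 mature sequences. With any terminal mismatch counted it was the same number of arms, 3 of 7, compared with 37.5%.

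The forms of miR-103-3p and miR-107-3p show where the U was added. They are written as RefSeq sequence in lower case with the added bases, taken from the mismatches, in capitals, and the shares are of all reads at the 5′-reference start, without mismatches elsewhere.
miR-103-3p, 23 nt, 51.1 ± 1.36%: agcagcauuguacagggcuauga
miR-103-3p, 22 nt, 7.37 ± 0.61%: agcagcauuguacagggcuaug
miR-103-3p, 22 nt and U, 5.24 ± 0.217%: agcagcauuguacagggcuaugU
miR-103-3p, 23 nt and U, 3.87 ± 0.144%: agcagcauuguacagggcuaugaU
miR-107-3p, 22 nt, 42.0 ± 1.26%: agcagcauuguacagggcuauc
miR-107-3p, 22 nt and U, 10.6 ± 1.52%: agcagcauuguacagggcuaucU
miR-107-3p, 23 nt, 7.94 ± 0.346%: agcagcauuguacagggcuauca
In both miRNAs a U tail was more frequent on reads that matched to base 22 than on those that matched to base 23. Base 23 is an A in both, so a 22-nt end with an added A counts as a match to base 23. The number of such reads is unknown. For miR-103-3p, 43.5 ± 0.754% of the reads that matched to base 22 had a U tail, compared with 8.03 ± 0.283% of those that matched to base 23. For miR-107-3p the shares were 20.5 ± 0.754% and 5.23 ± 1.41%. At base 22 the share was higher in miR-103-3p than in miR-107-3p by many times the spread between libraries, and at base 23, where miR-107-3p had only 111 to 136 reads per library, the shares differed less.

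U tails were found on the 3p arms of the miR-15/16 hairpins as well. They were present on 24.3 ± 5.78% of the miR-15a-3p reads, 10.4 ± 0.413% of miR-15b-3p, 5.63 ± 1.68% of miR-16-2-3p and 3.14 ± 1.75% of miR-16-1-3p. MiR-195a-3p had the highest share, at 41.5 ± 3.58%. The 5p arms were lower in each hairpin where both were measured. MiR-15a-5p had 2.30 ± 0.431%, miR-195a-5p 0.391 ± 0.253%, miR-15b-5p 0.334 ± 0.123%, miR-497a-5p 0.248 ± 0.169% and miR-16-5p, at Mir16-1, 0.0209 ± 0.0133%. MiR-15a-3p and miR-16-1-3p rest on about 83 and 95.3 reads per library, so their shares are known less well than those of miR-103-3p. Among the other listed starts the same order held, with a median U-tail share of 9.23% in 60 3p arms and 2.06% in 76 5p arms, each with a wide range.

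**Figure D4:**
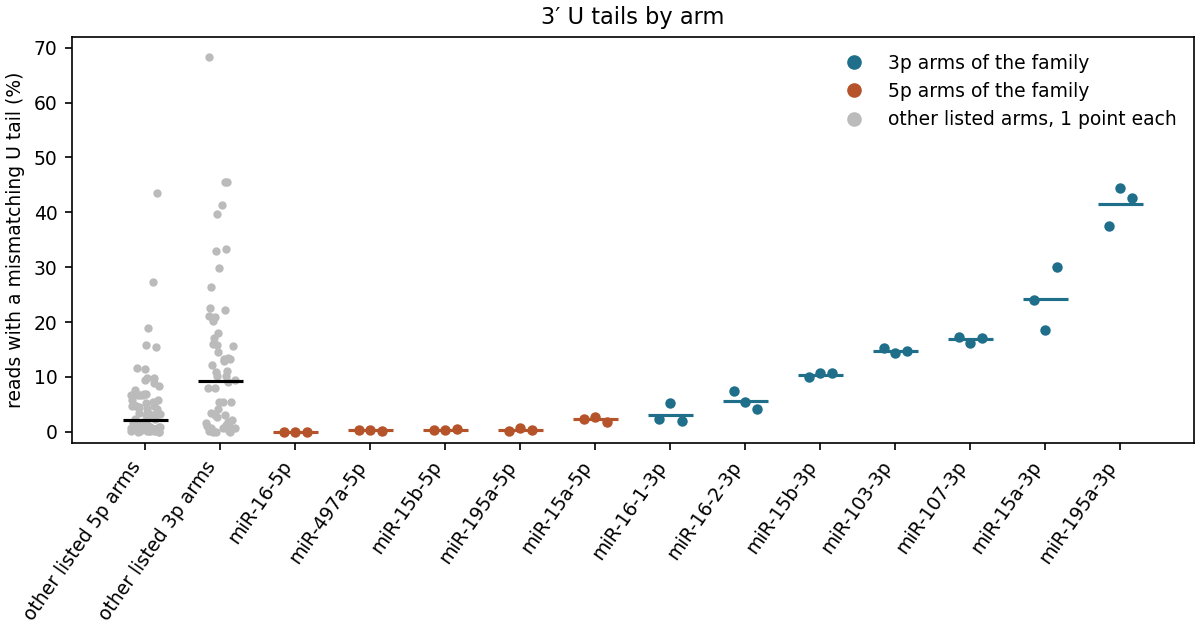
Share of reads at the 5′-reference start with a mismatching tail of U only (%, vertical axis) in each arm of the group and of Mir195a and Mir497, with 1 point per library and a line at the mean, beside the other listed 5p and 3p arms (gray, 1 point per arm, line at the median). The 5p arms of the group stay below 3%, the library means of the 3p arms range from 3.14% to 41.5%, single libraries of miR-16-1-3p lie as low as 1.94%, and identical copies are shown once.

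For some 5p arms an added U could not be seen. The base that follows miR-16-5p and miR-15b-5p in their hairpins is a U, so that a read with one added U matches the genome. Reads 1 base longer than the mature sequence that matched made up 2.75 ± 0.145% of miR-16-5p at Mir16-1 and 0.181 ± 0.0542% of miR-15b-5p. These are the most that such added U could reach at this length. The base after miR-103-3p and miR-107-3p is an A, and matching reads of 24 nt made up 0.910 ± 0.162% at Mir103-1 and 1.01 ± 0.0800% at Mir107. Even if every longer matching read of miR-16-5p had an added U, its share would be below the U-tail share of miR-103-3p. Of the few terminal mismatches of miR-16-5p at Mir16-1, 70.5% were tails of A. In miR-15a-5p base 21 is a U, so a 20-nt end with an added U also matches, and its U-tail share may be too low.

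Mismatches inside the reads were concentrated on A at a few positions. C in place of A was read at position 12 (A12C) in 15.9% to 19.1% of the reads of the 6 main arms with an A there, as the mean of the libraries in each. The rest of the listed starts gave a like value, with a median of 19.4% over 24 arms. At position 10, miR-15b-5p had A10C in 14.2 ± 1.60% and miR-15a-5p in 8.50 ± 0.920% of its reads, compared with a median of 13.0% in 27 other arms. At position 20, A20C was read in 6.68% to 6.77% of the reads of 4 main arms. At positions 13 and 14, just after position 12, A was read as C in at most 0.0404% of the reads of the main arms. The other listed arms had the substitution at the same positions. They also had it at positions where no main arm has an A, such as position 11 (median 7.64% in 20 arms) and position 6 (9.40% in 26 arms). The origin of the substitution was not tested.

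**Figure D5:**
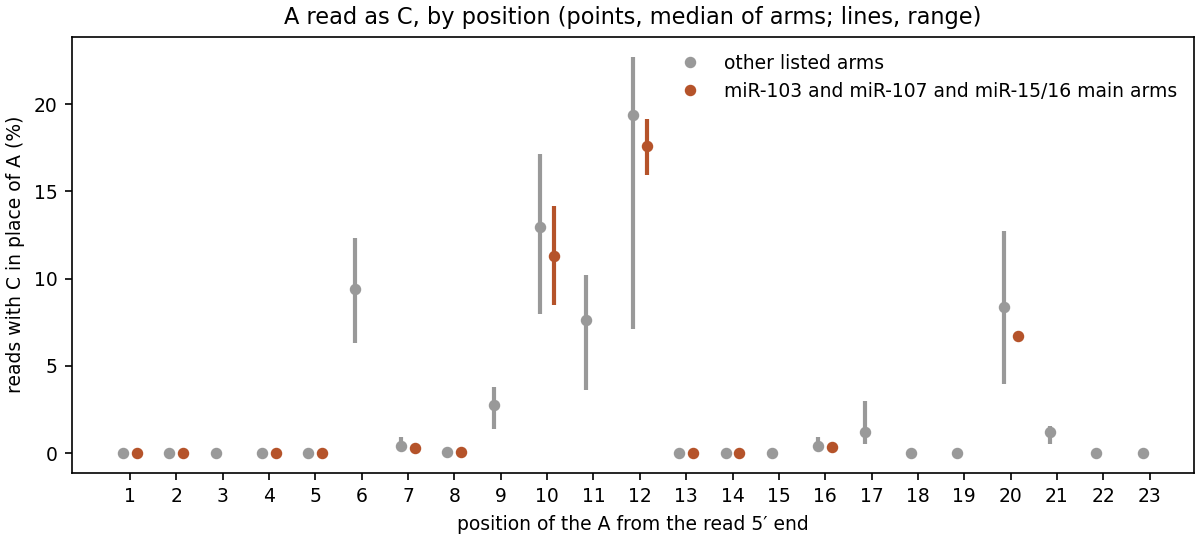
Share of reads with C in place of A (%, vertical axis) by the position of the A from the 5′-end of the read (horizontal axis), with points at the median over arms and lines over their range, for the main arms of the group and for the other listed arms. Both sets peak at position 12 and lie near 0 at positions 13 and 14.

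The A12C reads touch the separation of miR-15a-5p and miR-15b-5p, since A12C is also a difference between their sequences. A miR-15a-5p read with this substitution differs from miR-15b-5p only in its last 3 bases. At the miR-15b-5p start, 17, 19.5 and 17.5 reads carried the miR-15a bases from base 20 on, which is 1.26 ± 0.108% of the miR-15b-5p reads. Reads of 20 nt with this substitution were divided equally, with 5, 3.5 and 3.5 reads at each of the 2 loci. The reads that may have moved were thus few compared with the difference between miR-15b-5p and miR-15a-5p.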

How the data were processed

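Small RNA libraries were prepared from MIN6 cells with the Illumina TruSeq kit. According to the study's methods, the 3′-adaptor was trimmed with cutadapt, reads were aligned with Bowtie without mismatches, and the rest were aligned around the mapped regions with SHRiMP, allowing 1 internal mismatch and up to 3 at the 3′-end. The authors deposited, for each alignment, an expected count that is not normalized and in which reads with equally good loci were divided equally. The submitters' processing notes name the build mm9. Mismatched reads were kept only near exact ones, so that forms far from any exact read could not be seen.

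From these files, 5′-starts, lengths and mismatches were summed with Python 3.11.15, numpy 2.4.6 and pandas 2.3.3. Coordinates were read as 0-based, and alignments marked as exact ended 1 base early and were lengthened. Listed starts were placed by the read numbers of the study's list of highly expressed miRNAs, within 0.2%. The other arm of each hairpin was placed by its distance from the listed arm in RefSeq, and Mir195a by its distance from Mir497. Of 203 listed names, 145 were placed, and 144 remained after a check of the read mismatches against the RefSeq sequence (GRCm38.p6), in which no member's mature arm had a contradicting read. RefSeq held a mature sequence for all 7 hairpins. RefSeq coordinates on GRCm38 gave these distances between arms and hairpins, and no GRCm38 position is printed.

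All 7 hairpins were described with both arms, each reference start and the starts 1 base on either side. Further starts are given if they had at least 10 reads in every library. The members and lists were chosen with earlier results of these data known. Alternatives were exact alignments, whole-number values, 2 read-length ranges, other denominators, another definition of the terminal mismatch and leaving out each replicate. Exact permutation tests were two-sided and made with scipy 1.17.1, and since both sets of miRNAs come from the same libraries, paired exact tests were added after seeing the data. The summing was tested on simulated data. Shares of reads have 95% Wilson intervals, which reflect counting error alone because the reads carry no molecular identifiers. At 9269795 to 10816006 mapped reads per library, 3 reads correspond to 0.277 to 0.324 RPM.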

Additional observations from a re-analysis of the deposited data

How the results depend on the processing

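The seed levels in this section are those within the 7 hairpins. With alignments without a mismatch, the miR-15/16 seed fell to 4047 RPM and that of miR-103 and miR-107 to 537 RPM, since all reads with a mismatch, inside or at the 3′-end, are dropped. The upstream share of the latter was then 0.00611%, which rests on 1 read, since 8 of the 9 upstream reads had a mismatch. With whole-number values only, which do not single out unshared reads because an equal share can be whole, these seeds were at 1560 and 437 RPM, the downstream share of miR-15/16 was 0.281%, and the terminal mismatch was 21.2% for miR-103 and miR-107 and 1.73% for miR-15/16. With reads at the listed starts as denominator the seeds were at 6798 and 1141 RPM. With a mismatch at any of the last 3 bases counted, 17.9% and 0.877% of the reads were included. All other settings, namely both read-length ranges, the denominator of reads within 5 bases and the cluster ratio under each of its 4 alternatives, moved the values by less than 1 SD. Summing identical copies took miR-16-5p from 2486 to 4969 RPM and miR-103-3p from 387 to 776 RPM.

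Without each replicate in turn, the miR-15/16 seed ranged from 5089 to 5279 RPM, that of miR-103 and miR-107 from 843 to 902 RPM, its upstream share from 0.0230% to 0.0453%, the downstream share of miR-15/16 from 0.0971% to 0.116%, the terminal mismatch from 16.02% to 16.46% and from 0.360% to 0.396%, and the log2 cluster ratio from 1.04 to 1.25. Because the compared miRNAs come from the same libraries, a paired test with the library as replicate block was added after seeing the data. The differences of 15.8 and 3.49 percentage points then had p = 0.25, compared with p = 0.1 in the unpaired exact permutation test, and neither test can give a smaller p with 3 libraries. A count of 0 allows up to 3 reads, and reads of identical copies cannot be assigned to 1 locus.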
